A study of Mus musculus with 6 samples.

Results

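The 58 genes described here act in G2, the gap before cell division, and in mitosis itself. They were taken by name from a table of 49671 genes and cover mitotic kinases, cyclins and partners of the anaphase-promoting complex, kinesins, spindle assembly proteins, kinetochore and centromere proteins, the chromosomal passenger complex, condensin, other mitotic chromosome proteins, cytokinesis factors and the transcription factor Foxm1. All 58 were found, and all 58 were among the 15413 genes with enough reads to be tested. RNA was sequenced from basal keratinocytes of the ear epidermis of CD1 mice, an outbred stock, in 3 groups: intact males, females and castrated males. No transgene or mutation is named in the labels, and no label used here gives the age of the mice or the time between castration and sampling. Each group had 2 libraries. Each library held polyA RNA of 100000 living cells sorted as integrin alpha 6 positive, CD34 negative basal cells, with 2 littermates pooled. All p-values therefore reflect how far apart pools of one group were, and effects of litter and of group cannot be told apart.

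Division of basal keratinocytes renews the epidermis. As a cell nears mitosis, cyclin B with Cdk1 starts chromosome condensation and spindle assembly, kinetochores tie the chromosomes to microtubules, and the anaphase-promoting complex with Cdc20 destroys cyclin B and securin so that the chromatids separate and the cell divides. Most of these genes are repressed in resting cells by the DREAM complex and activated late in the cycle by the MuvB complex with B-MYB and then FOXM1. These complexes contact a short promoter element, the cell cycle genes homology region (CHR), often close to CCAAT boxes bound by the factor NF-Y.

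The libraries held an estimated 8412487 to 9648154 reads, recovered from the scaled values, and 1 read was worth 0.102 to 0.128 CPM (read counts relative to library size, after TMM scaling). By these estimated reads, replicates differed by more than counting error, with a chi-square divided by its degrees of freedom of 4.41 for castrated males, 11.7 for males and 12.3 for females. The Y chromosome genes Ddx3y, Eif2s3y, Kdm5d and Uty each had at least 341 reads in every male and castrated male library. In a female library each of them had at most 2. The 7 basal keratinocyte markers, among them Krt5 and Krt14, summed to 41200 to 48700 CPM over the 6 libraries, and Cd34, the bulge marker used to exclude cells in the sort, stood at 1.49 to 3.05 CPM. Female replicate 2 had the lowest scaling factor (0.927, against 1.01 to 1.03 in the other libraries).

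Promoter sequences are set beside the values as a description, and their part in the difference between the sexes was not tested. Of the 58 members, 47 had 49 promoters in the RefSeq table of GRCm38.p6, which gives 250 bases before and 50 after each gene start. The CHR was searched as TTTGAA or TTCGAA and the NF-Y box as CCAAT, each on both strands. The bases below are the 130 before the start of 8 members, chosen after their matches were seen as promoters that hold both motifs. Matches on either strand are in capitals, so ATTGG is a CCAAT box and TTCAAA a CHR of the other strand. Cdc20, Ube2c, Cdk1, Kif11, Kif22 and Top2a rose in females, while Espl1 and Prc1 did not pass the test. Their positions, each with its strand, are chr4:118437344-118437473 (-), chr2:164769799-164769928 (+), chr10:69352913-69353042 (-), chr19:37376252-37376381 (+), chr7:127042421-127042550 (-), chr11:99024190-99024319 (-), chr15:102296163-102296292 (+) and chr7:80294346-80294475 (+).
Cdc20: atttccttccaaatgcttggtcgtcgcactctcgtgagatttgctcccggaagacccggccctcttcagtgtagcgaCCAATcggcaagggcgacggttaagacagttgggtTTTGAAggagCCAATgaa
Ube2c: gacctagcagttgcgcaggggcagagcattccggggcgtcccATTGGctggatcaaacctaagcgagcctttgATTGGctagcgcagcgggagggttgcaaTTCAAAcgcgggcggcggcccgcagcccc
Cdk1: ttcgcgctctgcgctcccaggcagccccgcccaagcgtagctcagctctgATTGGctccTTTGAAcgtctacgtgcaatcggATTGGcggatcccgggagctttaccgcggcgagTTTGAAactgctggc
Kif11: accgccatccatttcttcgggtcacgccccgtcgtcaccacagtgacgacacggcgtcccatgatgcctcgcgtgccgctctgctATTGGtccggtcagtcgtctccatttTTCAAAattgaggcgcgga
Kif22: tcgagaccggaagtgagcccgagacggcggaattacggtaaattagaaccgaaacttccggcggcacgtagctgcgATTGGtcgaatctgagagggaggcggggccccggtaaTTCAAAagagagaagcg
Top2a: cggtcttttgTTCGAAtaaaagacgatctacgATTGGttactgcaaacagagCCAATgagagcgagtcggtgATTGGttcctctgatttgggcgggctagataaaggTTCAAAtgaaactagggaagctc
Espl1: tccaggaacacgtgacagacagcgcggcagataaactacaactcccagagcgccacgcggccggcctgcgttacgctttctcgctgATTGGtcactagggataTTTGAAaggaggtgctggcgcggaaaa
Prc1: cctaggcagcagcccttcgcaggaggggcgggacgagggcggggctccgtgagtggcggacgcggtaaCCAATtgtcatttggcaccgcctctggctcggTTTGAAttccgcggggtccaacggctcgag

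In Cdc20 the CHR begins 18 bases before the start, between 2 CCAAT boxes that begin 53 and 8 bases before it. Cdk1 holds 2 CHR matches, the nearer of them 15 bases before the start. Espl1 and Prc1, whose RNA did not pass the test, carry a CCAAT box followed by a CHR in the same order as Kif11 and Kif22.

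A CHR match was present in 39 of the 49 member promoters (79.6%), against 14% of the 12831 promoters of tested genes and 19.2% of all 32851 promoters. CCAAT was present in 35 (71.4%), against 37.6% and 37.4%. Both motifs were present in 33 (67.3%), against 5.79% and 7.52%. The CHR matches lay close to the start: 35 member promoters (71.4%) had one beginning between 50 bases before and 49 bases after it, against 3.62% of the promoters of tested genes. CCAAT boxes beginning 100 to 26 bases before the start were in 26 member promoters (53.1%), against 19.5%; both windows were chosen after the positions were seen. In 8 promoters neither motif was found, those of Nuf2, Kif18a, Knstrn, Nusap1, Ncaph, Mad2l1, Pttg1 and Birc5, and absence says only that these letters are not in the window. Among 41 promoters of members that rose in females, 33 had a CHR (80.5%) and 29 had CCAAT (70.7%). Among 8 promoters of members that did not pass, 6 had a CHR (75%) and 6 had CCAAT (75%).

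**Figure D1:**
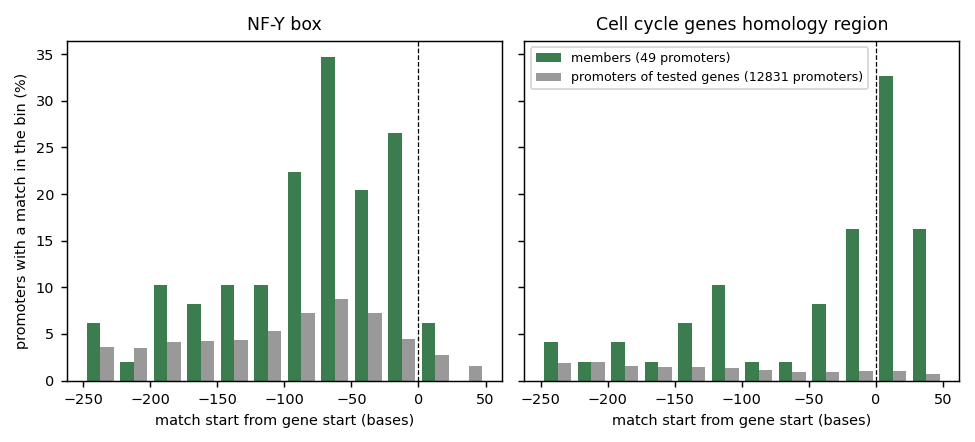
Percent of promoters with a match that begins in each 25-base bin, by distance from the gene start in bases, for CCAAT (left, the NF-Y box) and for TTTGAA or TTCGAA (right, the CHR), with 49 member promoters in green and 12831 promoters of tested genes in grey. Member CCAAT boxes are most frequent 75 to 51 bases before the start (34.7% of promoters), and member CHR matches in the 25 bases from the start on (32.7%).

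Females had the highest summed RNA of these genes and intact males the lowest. The 58 members summed to 1865 and 1578 CPM in the males (1722 ± 203, SD, n = 2), 2124 and 2798 in castrated males (2461 ± 477, SD, n = 2) and 3383 and 4650 in females (4016 ± 896, SD, n = 2). The 3 groups did not overlap in this sum. The members took 0.159% to 0.189% of the reads in males, 0.219% to 0.283% in castrated males and 0.343% to 0.431% in females. In bulk RNA, more dividing cells and more of this RNA per dividing cell cannot be told apart.

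For comparison, 38 genes of S phase and DNA replication, the stage before G2, summed to 1757 and 2232 CPM in males, 2205 and 2267 in castrated males and 2453 and 3270 in females. Males and castrated males overlapped in the S phase sum. The sum of the G2 and mitosis genes divided by the S phase sum was 1.06 and 0.707 in males, 0.963 and 1.23 in castrated males and 1.38 and 1.42 in females. The female ratios lay above the other 4, while males and castrated males overlapped. With 2 libraries a group, an exact permutation test of this ratio cannot reach 0.05, and none is given.

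**Figure D2:**
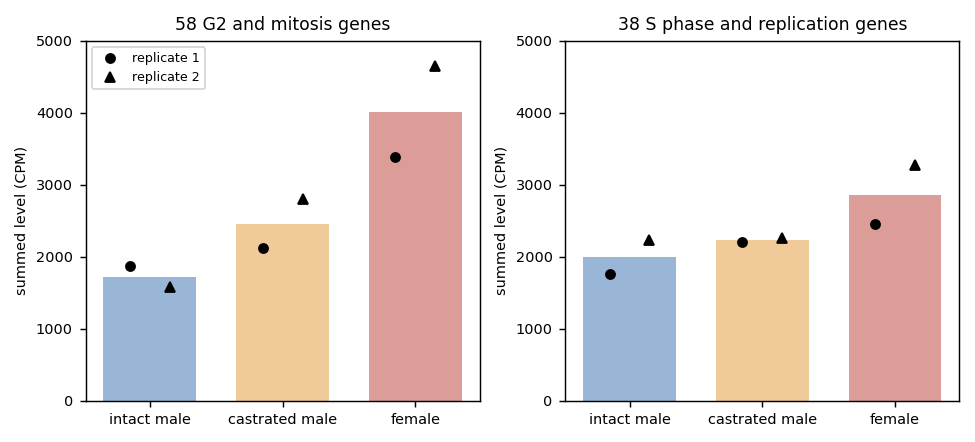
Summed level (CPM) of the 58 G2 and mitosis genes (left) and of 38 S phase and replication genes (right) in intact males, castrated males and females. Bars are means of 2 libraries, the circle is replicate 1 and the triangle replicate 2. On the left the groups do not overlap (at most 1865 in males, 2124 to 2798 in castrated males, at least 3383 in females), and on the right males and castrated males do.

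The first comparison asked how the sexes differ in these genes. Of the 58 members, 47 rose in females over males and 0 fell (limma, Benjamini-Hochberg adjusted p below 0.05 over all 15413 genes), where 3.7% of all tested genes rose and 2.39% fell. The log2 fold change was positive for all 58, with a median of 1.21 (2.31-fold), against -0.01 over all genes tested, and 54 had an unadjusted p below 0.05, as did 24.9% of all tested genes. Both female libraries stood above both male libraries in 56 members, where 26.6% of all genes did so. The calls depended on which libraries were fitted. They were lost without female replicate 2, where calls over all genes fell as well, and the cause was not tested. In that fit all 58 log2 fold changes stayed positive, with a median of 1.00. Fewer members, and fewer of all genes, also passed when either male library or either castrated male library was left out. The member medians were then 1.21 without male replicate 1 and 1.11 without male replicate 2. Without castrated male replicate 1 or 2 they were 1.19 and 1.21. Without castrated libraries at all 27 members passed, and 1.76% of all genes were called in either direction.

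**Figure D3:**
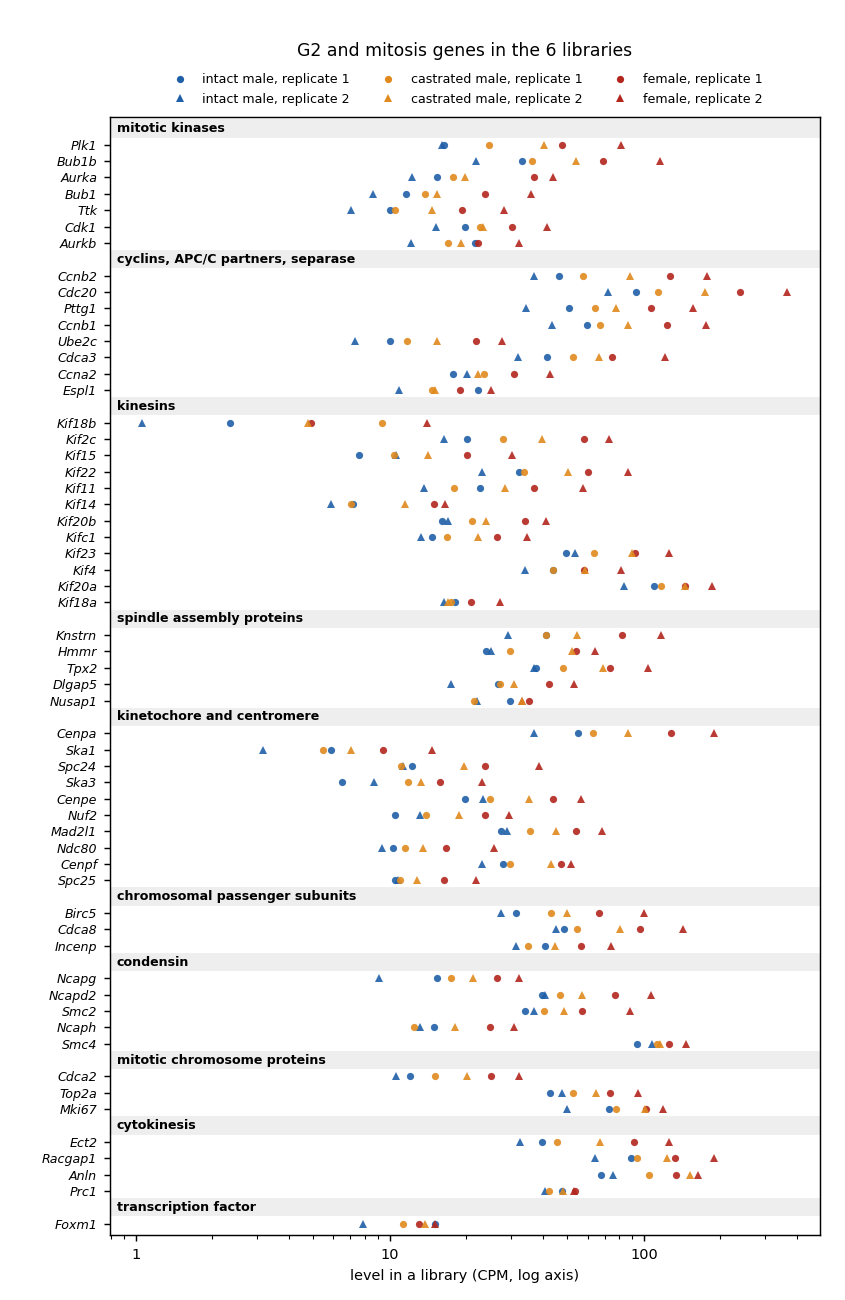
Level (CPM, log axis) of each of the 58 members in the 6 libraries, grouped by role, with colours for the groups and circles and triangles for replicates 1 and 2. Female replicate 2 is the highest library in 56 members, and no female library is the lowest in any.

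Among the 7 mitotic kinases 6 rose in females (median log2 fold change 1.50). Plk1, which drives centrosome maturation and spindle assembly, stood at 16.4 and 16 CPM in the males, 24.5 and 40.5 in castrated males and 47.5 and 81.5 in females. The 3 groups did not overlap, and Plk1 rose in females by 1.91 ± 0.29 (log2, SE, adjusted p = 0.0121). Bub1b, a kinase-like protein of the spindle checkpoint, was at 33.2 and 21.9 CPM in males, 36.3 and 54.1 in castrated males and 69 and 116 in females, and it rose by 1.71 ± 0.29 (adjusted p = 0.0191). Cdk1, the kinase that starts mitosis, had 19.8 and 15.2 CPM in males, 22.6 and 23.3 in castrated males and 30.2 and 41.5 in females, and it rose by 1.01 ± 0.21 (adjusted p = 0.0295). In all 3 kinases every castrated library lay above both males and below both females. The checkpoint kinases Bub1 and Ttk rose by 1.50 and 1.42.

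The 2 Aurora kinases differed in their call. Aurka, which acts at spindle poles, had 15.3 and 12.2 CPM in males, 17.7 and 19.8 in castrated males and 36.9 and 43.8 in females, a rise in females of 1.52 ± 0.19 (adjusted p = 0.0062). Aurkb, the kinase of the chromosomal passenger complex, had 21.6 and 12.1 CPM in males, 16.9 and 19 in castrated males and 22.2 and 32.2 in females, with a log2 fold change of 0.71 ± 0.28 (adjusted p = 0.17). Male replicate 1 was close to female replicate 1 in Aurkb, while the Aurka groups did not overlap. The difference between the 2 kinases was not tested.

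Of the 8 cyclins, partners of the anaphase-promoting complex and separase, 7 rose in females (median log2 fold change 1.49). Cdc20, the activator of that complex at anaphase, had 93.4 and 72.4 CPM in males, 114 and 174 in castrated males and 238 and 367 in females. Its 3 groups did not overlap, and it rose in females by 1.84 ± 0.25 (adjusted p = 0.00884). Ccnb1, the main cyclin of mitosis, stood at 59.6 and 43.6 CPM in males, 67 and 86.8 in castrated males and 123 and 176 in females, a rise of 1.52 ± 0.22 (adjusted p = 0.00996). Ccnb2, a second B-type cyclin, stood at 46.5 and 36.9 CPM in males, 57.7 and 88.2 in castrated males and 127 and 177 in females, a rise of 1.84 ± 0.23 (adjusted p = 0.00685). For both cyclins the lowest female library was above the highest castrated one. Pttg1 (securin, which holds separase inactive), Ube2c (the ubiquitin-conjugating enzyme of the complex), Cdca3 and Ccna2 (cyclin A) rose by 1.62, 1.47, 1.37 and 0.92.

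Espl1, separase, the protease that cuts cohesin, did not follow securin past the test. It had 22.3 and 10.9 CPM in males, 14.6 and 15 in castrated males and 18.9 and 25 in females, a log2 fold change of 0.46 ± 0.31 (adjusted p = 0.385). Male replicate 1 lay between the 2 female libraries. Without male replicate 2 the fold change turned to -0.06.

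Of the 12 kinesins, the motors that move chromosomes and order spindle microtubules, 9 rose in females (median log2 fold change 1.19). Kif20a, which acts in the midzone of the dividing cell, had 110 and 83.7 CPM in males, 117 and 145 in castrated males and 145 and 185 in females, a rise of 0.77 ± 0.18 (adjusted p = 0.0447). Kif23, a motor of the centralspindlin complex of cytokinesis, had 49.2 and 53.6 CPM in males, 63.5 and 89.7 in castrated males and 92.6 and 126 in females, a rise of 1.07 ± 0.20 (adjusted p = 0.0234). Kif2c, which takes apart microtubules at centromeres and is shown because of its p, had the smallest adjusted p of the 58 members (0.00523), with 20.2 and 16.4 CPM in males, 27.8 and 39.6 in castrated males and 58 and 72.8 in females. In Kif2c all 3 groups stood apart, with a female to male log2 fold change of 1.80 ± 0.21. Kif15, Kif22, Kif11 (the motor that pushes spindle poles apart), Kif14, Kif20b and Kifc1 rose by 1.42, 1.39, 1.37, 1.22, 1.16 and 1.09.

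The other 3 kinesins did not pass. Kif4, an X-linked chromosome motor, had 43.8 and 34.1 CPM in males, 43.8 and 58.5 in castrated males and 57.9 and 81 in females (log2 fold change 0.82 ± 0.21, adjusted p = 0.0592). Kif18a, which dampens chromosome movement before anaphase, had 18 and 16.4 CPM in males, 17.4 and 16.9 in castrated males and 20.8 and 27.1 in females (0.45 ± 0.19, adjusted p = 0.184). In both, the female libraries were above the male ones, but by less than in most kinesins. Kif18b, a related motor at microtubule ends, had the largest fold change of all members and few reads, with 22 and 9 in males, 82 and 42 in castrated males and 48 and 109 in females. In CPM it stood at 2.34 and 1.06 in males, 9.33 and 4.78 in castrated males and 4.91 and 14 in females. Males were lowest and the other groups overlapped, and the female to male log2 fold change of 2.07 ± 0.51 had an adjusted p of 0.0502.

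Of 5 spindle assembly proteins 4 rose in females (median log2 fold change 1.22). Tpx2, the activator of Aurora A on microtubules, had 37.6 and 37.1 CPM in males, 48.1 and 68.9 in castrated males and 73.8 and 104 in females, a rise of 1.22 ± 0.21 (adjusted p = 0.0192). Knstrn, a spindle protein that also acts at kinetochores, had 41.3 and 29.3 CPM in males, 41.1 and 54.7 in castrated males and 81.9 and 117 in females, a rise of 1.48 ± 0.23 (adjusted p = 0.0144). Tpx2 separated the 3 groups, while in Knstrn castrated male replicate 1 fell within the male range. Hmmr and Dlgap5, both spindle microtubule proteins, rose by 1.25 and 1.12. Nusap1, which bundles spindle microtubules, did not pass, with 29.7 and 22.1 CPM in males, 21.4 and 33 in castrated males and 35.4 and 33 in females (0.41 ± 0.23, adjusted p = 0.314).

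Of 10 kinetochore and centromere genes 8 rose in females (median log2 fold change 1.17). Cenpa, the histone variant that marks the centromere, had 55.2 and 36.8 CPM in males, 62.8 and 86.9 in castrated males and 128 and 189 in females. It had the largest rise of this role, 1.78 ± 0.25 (adjusted p = 0.00927), and no overlap between the groups. Mad2l1, a checkpoint protein that holds Cdc20 inactive, had 27.5 and 28.9 CPM in males, 35.5 and 44.9 in castrated males and 54.1 and 68.1 in females, a rise of 1.09 ± 0.17 (adjusted p = 0.0151). Cenpf, a protein of the outer kinetochore, had 27.8 and 23 CPM in males, 29.7 and 43 in castrated males and 47.2 and 51.7 in females, a rise of 0.95 ± 0.20 (adjusted p = 0.0304). The groups did not overlap in these 2 genes either.

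The Ndc80 complex, the main microtubule anchor of the kinetochore, was called in 3 of its 4 subunits. Ndc80, Nuf2 and Spc24 rose in females by 1.04, 1.14 and 1.33. The fourth subunit, Spc25, had 10.5 and 10.8 CPM in males, 11 and 12.8 in castrated males and 16.4 and 21.8 in females (0.79 ± 0.21, adjusted p = 0.0621). Its female libraries were thus apart from the males, and its p was just past the threshold. In the Ska complex, which supports the same anchor, Ska3 rose by 1.29, and Ska1 had 5.86 and 3.17 CPM in males, 5.46 and 7.06 in castrated males and 9.41 and 14.7 in females (1.35 ± 0.34, adjusted p = 0.0518). Cenpe, the kinetochore motor, rose by 1.20.

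All 3 chromosomal passenger subunits, which hold Aurora B at the centromere and midzone, rose in females (median log2 fold change 1.32). Birc5 (survivin) had 31.4 and 27.3 CPM in males, 43.1 and 49.8 in castrated males and 66.7 and 100 in females, a rise of 1.47 ± 0.20 (adjusted p = 0.00884). Cdca8 (borealin) had 48.6 and 44.9 CPM in males, 54.5 and 80.3 in castrated males and 96.6 and 143 in females, a rise of 1.32 ± 0.22 (adjusted p = 0.018). Both separated the 3 groups. Incenp, the scaffold of the complex, rose by 0.85 ± 0.20 (adjusted p = 0.0432).

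Of 5 condensin subunits, which compact mitotic chromosomes, 4 rose in females (median log2 fold change 0.99). Ncapd2 had 39.8 and 40.7 CPM in males, 46.6 and 56.9 in castrated males and 76.9 and 107 in females, a rise of 1.16 ± 0.18 (adjusted p = 0.014). Smc4, an ATPase of both condensin complexes, had 94.3 and 108 CPM in males, 113 and 116 in castrated males and 125 and 147 in females, a log2 fold change of 0.42 ± 0.13 that did not pass (adjusted p = 0.0961). The groups were apart in both genes, and in Smc4 they lay closer together. Ncapg, Smc2 and Ncaph rose by 1.27, 0.99 and 0.96.

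The 3 mitotic chromosome proteins all rose in females (median log2 fold change 0.88). Mki67, the proliferation marker that coats mitotic chromosomes, had 73.1 and 49.8 CPM in males, 77.7 and 101 in castrated males and 102 and 119 in females, a rise of 0.86 ± 0.20 (adjusted p = 0.044). Top2a, the topoisomerase that untangles sister chromatids, had 42.7 and 47.6 CPM in males, 52.4 and 65 in castrated males and 73.7 and 94.7 in females, a rise of 0.88 ± 0.17 (adjusted p = 0.0251). The groups did not overlap in either gene, although castrated male replicate 2 and female replicate 1 nearly met in Mki67. Cdca2, which brings a phosphatase to chromatin at anaphase, rose by 1.29.

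Of 4 cytokinesis genes 3 rose in females (median log2 fold change 1.06). Racgap1, the partner of Kif23 in centralspindlin, had 88.7 and 64 CPM in males, 94.3 and 123 in castrated males and 133 and 189 in females, a rise of 1.07 ± 0.22 (adjusted p = 0.0295). Anln (anillin), a scaffold of the contractile ring, had 67.5 and 75.7 CPM in males, 105 and 152 in castrated males and 134 and 164 in females, a rise of 1.05 ± 0.19 (adjusted p = 0.0212). In Anln the castrated and female libraries overlapped, and both stood above the males. Ect2, the exchange factor that switches on RhoA at the division plane, rose by 1.56. Prc1, which bundles midzone microtubules, had the smallest fold change of all members: it stood at 47.6 and 40.9 CPM in males, 42.2 and 48 in castrated males and 53.7 and 53.1 in females (0.27 ± 0.15, adjusted p = 0.283).

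Foxm1, the transcription factor that activates late cell cycle genes, had 15.1 and 7.87 CPM in males, 11.3 and 13.8 in castrated males and 13 and 15.1 in females. Its groups overlapped, and the female to male log2 fold change of 0.34 ± 0.30 did not pass (adjusted p = 0.514). It turned to -0.13 without male replicate 2.

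**Figure D4:**
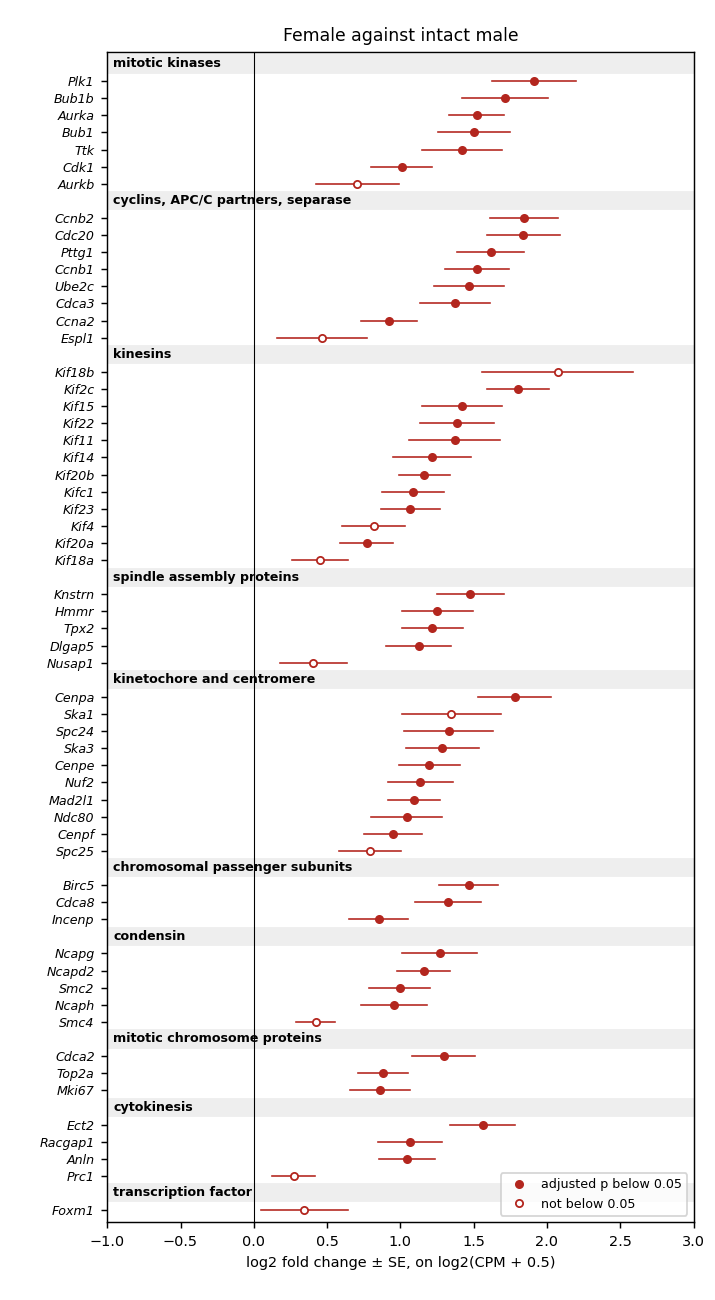
Log2 fold change of each member in females against intact males on the log2(CPM + 0.5) scale, with bars of 1 SE, grouped by role. Filled points have a limma adjusted p below 0.05 (47 of 58), open points do not, and values run from 0.27 (Prc1) to 2.07 (Kif18b).

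Set side by side, the roles had the same direction and unequal medians. The kinases (1.50) and the cyclins with the partners of the anaphase-promoting complex (1.49) had the highest medians, the passenger subunits (1.32), spindle assembly proteins (1.22), kinesins (1.19), kinetochore (1.17) and cytokinesis genes (1.06) followed, and condensin (0.99), the chromosome proteins (0.88) and Foxm1 (0.34) had the lowest. The kinases and the cyclin group held the first 2 ranks in every one of the 8 other settings and the 6 fits that left out a library, and Foxm1 the last. The middle of the order did move: kinesins ranged from rank 3 to rank 7, and condensin from 6 to 9. Members of a role also differed among themselves: the kinases ran from 0.71 (Aurkb) to 1.91 (Plk1), the cyclin group from 0.46 (Espl1) to 1.84 (Ccnb2) and the kinesins from 0.45 (Kif18a) to 2.07 (Kif18b). The order of roles is a description and was not tested.

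The second comparison asked whether these genes differ between castrated and intact males. In limma 0 of the 58 members passed in castrated against intact males, where 0.0389% of all tested genes did (6 of 15413), and the smallest adjusted p was 0.425 (Anln). An unadjusted p below 0.05 was found for 28 members, and for 5.93% of all tested genes. The log2 fold change was positive in 56 members, with a median of 0.47 (1.38-fold) against 0.00 over all genes, and negative in Espl1 (-0.08) and Kif18a (-0.01). Both castrated libraries stood above both males in 44 members, where 17.3% of all tested genes did so. In 10 members the sign turned when 1 library was left out, and the median ran from 0.31 to 0.70 over those 6 fits.

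By role the castrated to intact median log2 fold change was 0.65 for the cyclin group, 0.57 for cytokinesis, 0.55 for the chromosome proteins, 0.52 for the kinases, 0.50 for the passenger subunits, 0.46 for the kinetochore, 0.44 for both kinesins and spindle assembly proteins, 0.31 for condensin and 0.18 for Foxm1. The largest single values were those of Kif18b (1.78 ± 0.51), Plk1 (0.94 ± 0.29), Kif2c (0.84 ± 0.21) and Anln (0.82 ± 0.19). None of these passed the adjusted test, and Kif18b had 82 and 42 reads in castrated males against 22 and 9 in males.

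The third comparison set castrated males against females. All 58 log2 fold changes were negative, with a median of -0.70 against 0.01 over all genes, and 47 had an unadjusted p below 0.05, as did 21.6% of all tested genes. Only Aurka passed the adjusted test, with a log2 fold change of -1.08 ± 0.19 (limma, adjusted p = 0.0333), where 1.15% of all tested genes were called lower. Both castrated libraries lay below both females in 53 members, where 28.3% of all tested genes did so. The count of members called lower depended on the libraries, and the count of all genes called moved with it. Both counts rose without female replicate 1 or either male library, and fell without female replicate 2 or either castrated library. The member median ran from -0.89 without female replicate 1 to -0.50 without female replicate 2. With a block for the replicate number 0 members were called lower, with 1.05% of all genes called in either direction. With the males left out 9 members were called lower, with 3.74% of all genes called.

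Role medians against females ran from -0.97 in the kinases, -0.86 in the cyclin group and -0.81 in the passenger subunits to -0.40 in cytokinesis and -0.16 for Foxm1. Ccnb2 (-1.07), Cenpa (-1.07), Cdc20 (-1.07), Knstrn (-1.04) and Kif11 (-1.02) were next to Aurka and did not pass. The values closest to 0 after Foxm1 were Anln (-0.23), Smc4 (-0.24) and Prc1 (-0.24).

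**Figure D5:**
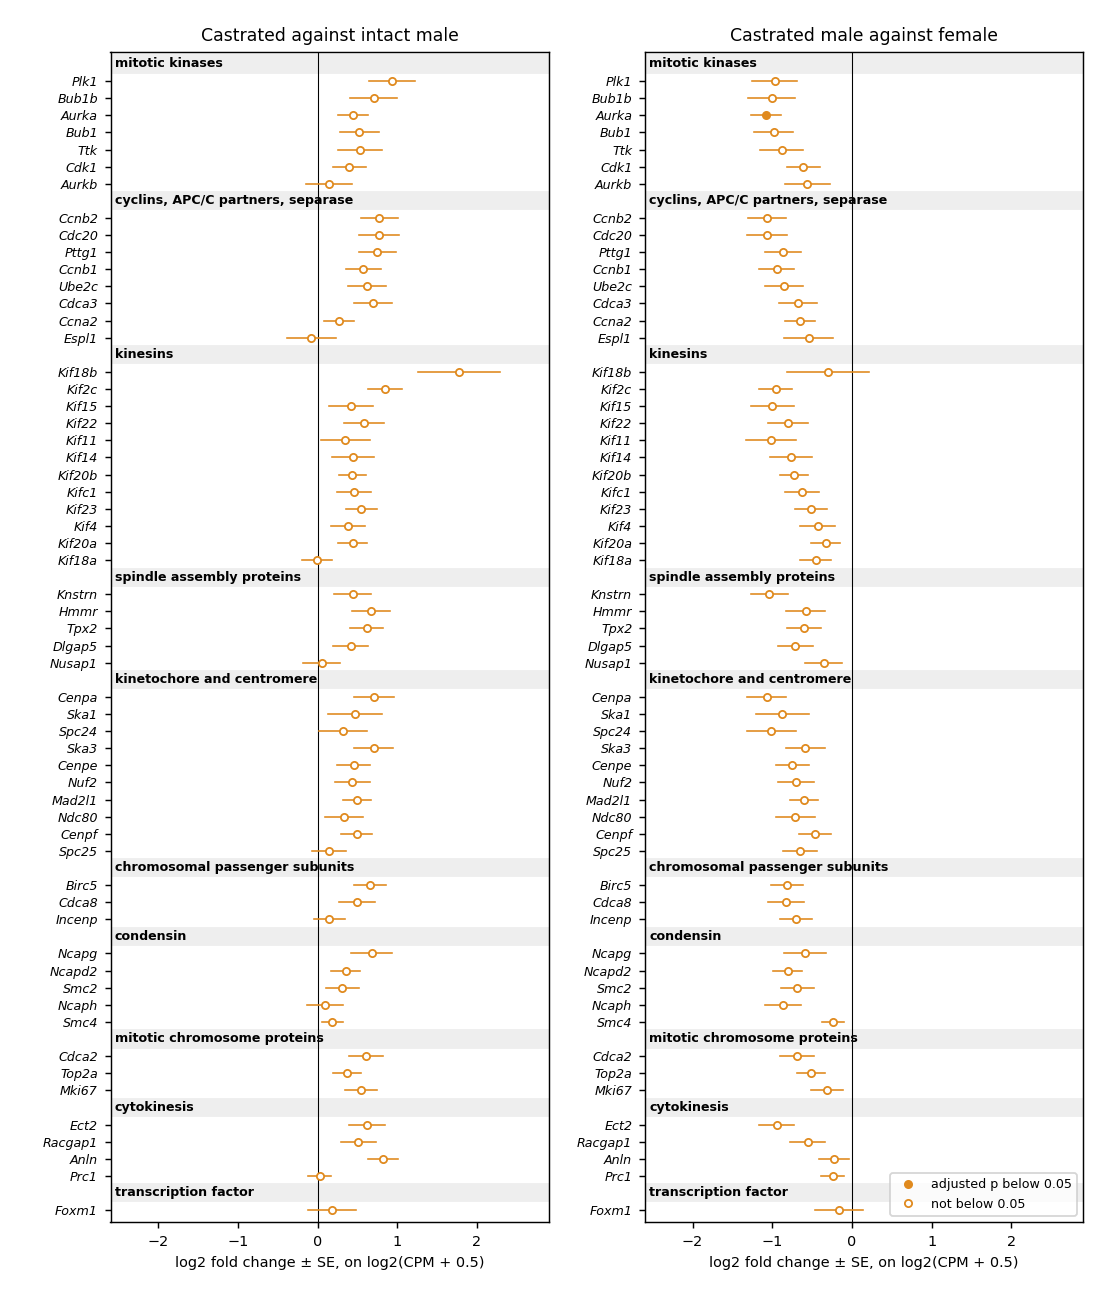
Log2 fold change with bars of 1 SE for each member in castrated against intact males (left) and in castrated males against females (right), on the log2(CPM + 0.5) scale. On the left no point is filled (adjusted p below 0.05) and 56 of 58 lie above 0, and on the right only Aurka is filled and all 58 lie below 0.

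The 3 comparisons share libraries, so the levels themselves give the plainest account. The order of group means was male, castrated male, female in 56 of 58 members, an order found in 21.2% of all tested genes, and castrated male, male, female in the other 2. The castrated libraries lay apart from and between both other groups in 41 members, overlapped the males in 14 and overlapped the females in 5. Over all tested genes they stood above both males in 17.3% and below both females in 28.3%. The share of all genes that met both conditions was not computed. Overlap or its absence between 2 libraries a group is no test, and no member passed in castrated against intact males, whether overlapping or apart. Anln and Kif18b were among the 5 that overlapped the females.

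The members also differed within groups, in the same direction for most of them. Female replicate 2 exceeded female replicate 1 in 56 of 58 members, with a median of 0.46 on the log2 scale (1.37-fold), and castrated male replicate 2 exceeded replicate 1 in 55 (0.37, 1.29-fold). In males 43 were lower in replicate 2 (median -0.29). Over all tested genes the same medians were 0.03, 0.00 and 0.00. The highest library was female replicate 2 in 56 members, and the lowest was male replicate 2 in 40, male replicate 1 in 15 and castrated male replicate 1 in 3. Female replicate 2 stood apart in both directions over all tested genes: it was the highest library in 31.6% of them and the lowest in 28.4%, against 7.03% and 11.4% for female replicate 1. Male replicate 2 was the lowest library in 16.5% of all tested genes. The spread between pools of one group was thus shared by the members, which are not independent measurements of a group.

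Other measured features moved with the groups, and their part in these results was not tested. The 7 suprabasal keratinocyte markers summed to 705 to 917 CPM in males, 1200 to 1550 in females and 1160 to 1260 in castrated males. Of these, Krt1, Krtdap and Flg rose in females over males, by 1.82, 0.78 and 2.25 (3 of 7, against 3.7% of all tested genes). None of the 7 was at 0. The 7 basal markers summed to 42400 to 48700 CPM in males, 41200 to 43400 in females and 45200 to 45400 in castrated males, and 0 of 7 passed (limma, 3 at an unadjusted p below 0.05). The sum for 10 leukocyte markers was 120 to 137 CPM in males, 44.7 to 109 in females and 107 to 188 in castrated males, with 0 of 9 tested passing (1 at an unadjusted p below 0.05). These basal and leukocyte counts at an unadjusted p are for females against males, where 24.9% of all tested genes had such a p. The 6 fibroblast and endothelium markers summed to 8.3 to 12.2 CPM, the 6 melanocyte and Merkel cell markers to 25.9 to 70 CPM and the 5 bulge markers to 94.6 to 143 CPM, and no marker of any list was at 0 in all 6 libraries.

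Gene length also moved with the groups. Over 15366 genes the female to male log2 fold change had a Spearman correlation of -0.132 with exon length, a description across genes, which are not replicates. The members are long, with a median exon length of 5167.5 bases against 3759 over all genes. With each library's length trend removed, 47 members rose and the median log2 fold change was 1.26. Exons of 12 members overlap those of other coding genes, mostly of the opposite strand, and no source used here says whether reads were counted by strand. The overlap took 29.3% of exon bases in Kif20a (with Cdc23), 22.8% in Ube2c (Tnnc2), 15.1% in Kif4 (Pdzd11), 13.4% in Ncapg (Lcorl), 12.5% in Ccna2 (Exosc9) and 11.1% in Prc1 (Rccd1), and reads from the pairs cannot be told apart there.

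Further genes of the same processes were taken from lists chosen with earlier results of these data known. Of 64 other mitosis genes 26 rose in females over males and 1 fell. Over all tested genes 3.7% were called higher and 2.39% lower, so 1 of 64 lower is near or below the background. In these 64 genes the female to male log2 fold changes had their median at 0.85. The 4 with the most CPM were Ncaph2 and Numa1, a condensin II subunit and a spindle pole protein, at 0.17 ± 0.12 and -0.07 ± 0.11, Ckap5, a microtubule polymerase, at 0.51 ± 0.13 (adjusted p = 0.0522), and Ckap2l, a spindle protein, which rose by 0.83 ± 0.18 (adjusted p = 0.0352). The gene that fell, named after its values were seen, was Wee1, the kinase that holds Cdk1 inactive. It had 78.1 and 74.7 CPM in males, 69.7 and 65.9 in castrated males and 47.6 and 37.2 in females, a change of -0.85 ± 0.15 (adjusted p = 0.0202). Its castrated libraries lay between the other groups, next to the males.

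Lists of regulators and of stable machinery had medians closer to 0. Of 15 subunits and partners of MuvB, B-MYB, E2F and NF-Y, 1 rose in females, the repressor E2f8 (0.90 ± 0.19, adjusted p = 0.0301, named after its values were seen), and the median log2 fold change was 0.19. With 3.7% of all tested genes called higher in females, 1 of 15 is near the background. The 4 with the most CPM, Rbbp4, Rbl2, Nfyb and Tfdp1, stood at 0.05, -0.21, -0.29 and 0.41 and did not pass. Core subunits of the anaphase-promoting complex, the machine that Cdc20 and Ube2c serve, had 0 of 15 past the test in limma (3 at an unadjusted p below 0.05) and a median of 0.08. Cohesin and its loaders had 0 of 9 (1 at an unadjusted p below 0.05) and a median of 0.04. With 24.9% of all tested genes at that p, the counts for the core complex and cohesin are near or below the background. Among 37 tested S phase genes 5 rose, where 3.7% of all tested genes did, and the median was 0.49. The 5 were Mcm10, Cdt1, Rrm1, Rrm2 and Uhrf1, named after their values were seen.

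Against intact males, castrated males had 0 genes called in each of these 5 lists in limma, with 12, 1, 0, 0 and 2 at an unadjusted p below 0.05 for the further mitosis genes, the regulators, the core complex, cohesin and S phase. Over all tested genes the share at that p was 5.93%, and the medians of the lists were 0.29, 0.01, 0.01, 0.00 and 0.17. Against females castrated males also had 0 called in each list, with 30, 5, 2, 1 and 10 at an unadjusted p below 0.05 and medians of -0.48, -0.16, -0.07, -0.08 and -0.32. With 21.6% of all tested genes at that p, the counts for the core complex, cohesin and S phase (2 of 15, 1 of 9 and 10 of 37) are near or below the background. The differences between these lists and the 58 members were not tested.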

How the data were processed

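The submitters' processing notes name STAR 2.7.5a, HTSeq 0.11.1, Picard and FastQC, and the builds GRCm38 and mm10. Annotation, strand setting and scaling: not given in the sources used here. As deposited, each value is a score: a whole number per gene, with nearly the same total in each column. Within a column the scores lie within 0.51 of multiples of 1 step (2.07 to 2.38), against 42.1% to 48.2% of arbitrary whole numbers. Reads are scores divided by that step and rounded. This recovery did not meet a stricter check of whole reads, so read numbers, CPM per read and the chi-square between replicates are estimates, the values were treated as scores, and no count model was fitted.

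Values are CPM after TMM scaling, computed on these reads. The test covered 15413 of 49671 genes, those reaching 1.16 CPM (10 reads at the median depth) in 2 libraries and 15 reads over all libraries. The log2(CPM + 0.5) values entered limma 3.58.1 under R 4.3.3, fitting 6 libraries and 3 group means with a variance prior that follows intensity. P-values are two-sided and adjusted by Benjamini-Hochberg within a comparison, and genes were called below 0.05. Fold changes on this scale understate changes of genes with few reads. The procedure was run on simulated reads drawn independently for each gene, without shifts between pools that genes share. How such shifts affect the calls was not tested. Male replicate 2 is numbered by its title; its library name has 3.

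The members, their roles and the other lists were chosen with earlier results of these data known. CPM per library are given for the 2 or 3 members of each role with the highest mean CPM, a choice that favours long transcripts, and for members that passed or failed against the rest of their role. Kif2c was added to these after its values were seen. Promoters are from the RefSeq table of GRCm38.p6, and 11 members without an entry have no sequence here. Exon lengths and overlaps are from GENCODE M21.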

Additional observations from a re-analysis of the deposited data

How the results depend on the processing

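All 58 members kept a positive female to male fold change under the 8 other settings, and the median stayed between 1.00 and 1.38 over the 6 fits that left out a library. The number of members called higher in females was 4 without a filter on low values (103 of all genes), 27 with only the 2 groups compared (265 of all genes), and 0 to 50 when a library was left out (49 to 1773 of all genes, against 940). Aurka, Ccnb2, Kif2c and Kif20b passed in all 8 other settings, and no member passed in all 6 fits with a library left out. Between castrated and intact males 0 members passed in every setting, while all genes called were 11 with a pseudocount of 2, 2 without a filter and 10 with the length trend removed (against 6), and 1 to 74 when a library was left out. The median of the members ran from 0.31 to 0.70 over those fits. Members called lower in castrated males than in females were 0 without a filter (33 of all genes), 9 with only the 2 groups (560) and 0 to 21 when a library was left out (21 to 1323 of all genes, against 266). The cause of these shifts was not tested.

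With the replicate number as a block, 42 members rose in females (817 of all genes), 0 passed in castrated against intact males and 0 in castrated males against females (162 of all genes). The deviations of replicate 1 correlated at -0.153 between males and females, -0.0103 between males and castrated males and 0.194 between females and castrated males, so shared numbers are not shown to pair the libraries.

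When a library was left out, the log2 fold change of some members changed sign. In females against males these were Espl1 (-0.059 to 0.97) and Foxm1 (-0.13 to 0.80), in castrated against intact males Aurkb (-0.27 to 0.56), Espl1 (-0.58 to 0.43), Kif11 (-0.00754 to 0.71), Kif18a (-0.073 to 0.062), Nusap1 (-0.25 to 0.37), Spc24 (-0.070 to 0.72), Incenp (-0.044 to 0.34), Ncaph (-0.17 to 0.37), Prc1 (-0.083 to 0.14) and Foxm1 (-0.27 to 0.64), and in castrated males against females Kif18b (-1.01 to 0.42), Anln (-0.50 to 0.074) and Foxm1 (-0.31 to 0.00744), each with the range over the 6 fits. The only other reversal was Kif18a in castrated against intact males, at 0.011 with library totals alone.

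The tests planned in edgeR and DESeq2 were not run, since the deposited values are not counts. With about 9 reads for Kif18b in its lowest library, depth limits that gene most.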
